A study of Mus musculus with 7 samples.

Results

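Expression of 10 genes of prostaglandin synthesis, breakdown, uptake and signalling was examined in bulk subcutaneous mouse tumours of LLC, the Lewis lung carcinoma line that can be transplanted between mice of one strain. The genes were Pla2g4a, Ptgs1, Ptgs2, Ptges, Ptges2, Ptges3, Hpgd, Slco2a1, Ptger2 and Ptger4, found by symbol among the 32212 gene identifiers of the tables, and each matched 1 identifier. Hpgd was selected on its measured FPKM, which differed between the groups in an earlier pass over the same libraries, so its difference is given as a description with no test, and the other 9 were added for their roles in the pathway. All mice were C57BL/6J, labelled wild type, and received LLC cells under the skin of the right axilla at 6 weeks of age. In 3 libraries the tumours were from mice on the high dose, 42.67 g/kg, of the herbal mixture Ze-qi decoction, here ZQD. In 4 control libraries they were from untreated mice bearing the same cells. Groups were assigned after 3 days, and the labels place the end of the experiment at day 21 in one field and day 22 in another. The labels give 8 mice per group and number the samples, but not whether libraries are from different mice, and the spread behind each p-value may for that reason be technical.

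Prostaglandins are lipid signals made from arachidonic acid. A phospholipase frees the acid from membranes, a cyclooxygenase turns it into prostaglandin H2, and a terminal synthase makes the final product, which for many tumours is prostaglandin E2 (PGE2). PGE2 acts through receptors on tumour cells and leukocytes, and its signal ends when a transporter carries it into cells and 15-hydroxyprostaglandin dehydrogenase, the product of Hpgd, oxidises it. In mouse and human tumours the pathway is known for its effects on blood vessels and on the immune response.

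Reads counted to genes totalled 34765330 to 38673663 in ZQD and 32065288 to 49914394 in controls. Only controls 1 and 2 had counts, and the totals of the other libraries were worked out from their FPKM. Levels are FPKM, in which reads are divided by the length of the gene and the size of the library, so levels of different genes are comparable per length. Mitochondrially encoded genes took 8.78% to 11.1% of the reads in ZQD and 5.18% to 7.96% in controls. This share did not overlap between the groups, and a larger share lowers the FPKM of all other genes. The labels call the sample tumour cells, but leukocyte transcripts were abundant: the macrophage marker C1qa averaged 162.8 ± 0.580 FPKM in ZQD and 166.5 ± 7.56 FPKM in controls. The epithelial markers Epcam (0.216 FPKM in ZQD and 0.224 FPKM in controls) and Krt8 (0.0542 FPKM in ZQD and 0.0883 FPKM in controls) were low. Another epithelial marker, Krt19, was not, at 14.5 FPKM in ZQD and 18.1 FPKM in controls. In bulk tumour, fewer cells of a type and less RNA per cell cannot be told apart, and this holds for every difference given here.

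The promoters of Hpgd and Ptgs2 are printed because the group difference turns on Hpgd and because Ptgs2 was the member that varied most within the ZQD group. Each sequence is the 250 bases before the annotated RefSeq start on GRCm38.p6, written 5′ to 3′ on the strand of the gene; the sources used here do not name the genome build behind the deposited values. Capitals mark a GC box, the only searched motif present in either window.
Hpgd, chr8:56294302-56294551, plus strand: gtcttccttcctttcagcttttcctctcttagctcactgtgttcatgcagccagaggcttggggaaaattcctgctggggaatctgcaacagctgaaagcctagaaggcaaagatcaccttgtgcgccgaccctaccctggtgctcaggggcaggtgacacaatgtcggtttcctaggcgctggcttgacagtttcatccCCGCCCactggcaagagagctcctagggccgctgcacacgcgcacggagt
Ptgs2, chr1:150099781-150100030, plus strand: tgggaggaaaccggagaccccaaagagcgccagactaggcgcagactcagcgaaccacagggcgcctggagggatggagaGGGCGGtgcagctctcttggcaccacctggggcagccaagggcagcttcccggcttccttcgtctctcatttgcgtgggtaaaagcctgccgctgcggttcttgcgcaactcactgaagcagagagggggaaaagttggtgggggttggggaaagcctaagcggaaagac
The motifs searched on both strands were the TATA box (TATAAA), the core of the cAMP response element (TGACG), the core of the hypoxia response element (ACGTG), the E-box (CACGTG, which contains ACGTG), the AP-1 site (TGANTCA), the GC box (GGGCGG) and the CCAAT box (CCAAT). The GC box lay 50 bases before the start of Hpgd, on the opposite strand, and 170 bases before the start of Ptgs2. It occurs in 32.7% of all 32851 RefSeq windows of this length, and among the members it was also found in the windows of Ptger4, Ptges, Ptges3 and Slco2a1. The cAMP response core, present in 17.8% of all windows, and the AP-1 site, in 6.75%, were in none of the member windows. Bases past the annotated start or further upstream were not searched, so a motif absent from a window may lie just outside it. These letters describe the windows and say nothing of the factors that bind there.

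Of the 10 members, Hpgd and Ptger2 were higher in every ZQD library than in any control, and the groups of the other 8 overlapped. Over all 32212 genes, 4.09% had all ZQD libraries above all controls and 5.38% all below; among genes past the filter these shares were 5.35% and 9.84%. Mean FPKM was higher in ZQD for 5 members and lower for 5. Ptger2 stayed under the expression filter (0.5 FPKM in at least 3 libraries), and 9 members passed it. In the limma test of 14838 genes with Benjamini-Hochberg adjustment over all of them, 0 of the 8 tested members other than Hpgd passed an adjusted p of 0.05, beside 0% of all tested genes. At an unadjusted p under 0.05 the count was again 0 of 8, beside 15.5% of all tested genes (5.21% higher in ZQD). edgeR and DESeq2, run on reads recovered from FPKM, also called 0 of these 8, while DESeq2 called 4.13% of the 12525 genes to which it gave an adjusted p, 2.3% as higher in ZQD. Their adjusted p in limma ran from 0.678 to 0.978, and their median log2 fold change, ZQD minus control, was -0.052, against -0.043 for all tested genes. Fold changes are on the log2(FPKM + 0.5) scale, which understates the change of low genes.

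**Figure D1:**
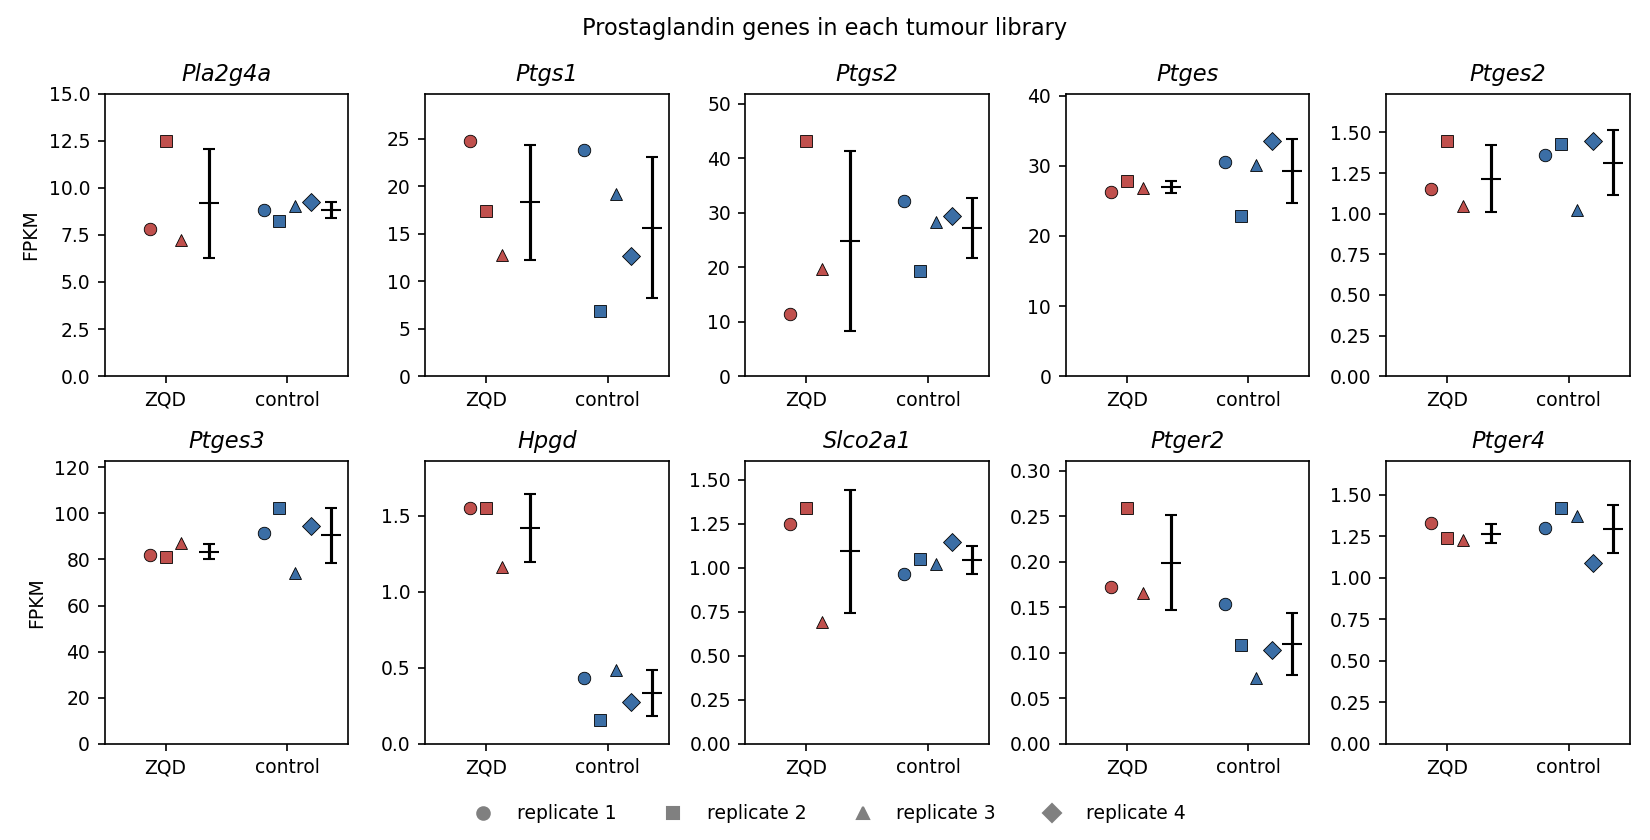
FPKM of the 10 members in each library, with ZQD left and control right in each panel; every panel starts at 0, symbols mark the replicate number, and the black bar is the mean ± SD. The Hpgd points of ZQD (1.16 to 1.55 FPKM) sit above all controls (0.153 to 0.482 FPKM), and Ptgs2 spreads from 11.4 to 43.2 FPKM within ZQD.

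Hpgd (ENSMUSG00000031613) encodes the enzyme that oxidises and thereby inactivates PGE2. It was at 1.55, 1.55 and 1.16 FPKM in ZQD 1 to 3 and at 0.429, 0.153, 0.482 and 0.272 FPKM in controls 1 to 4. The lowest ZQD library lay above the highest control by more than the whole range of the controls. The mean was 1.42 ± 0.224 FPKM in ZQD (SD, n = 3) and 0.334 ± 0.150 FPKM in controls (SD, n = 4), a ratio of 4.26. These levels rest on few reads, with 96, 101 and 68 in ZQD and 36, 10, 26 and 18 in controls. The log2 fold change was 1.22 (SE 0.191), with values of 1.10 to 1.32 when 1 library was left out; its sign could not turn, since the gene was chosen on these values and the groups do not overlap. Hpgd lay under 0.5 FPKM in every control and could enter the tested set only through the ZQD libraries. Among the 10 members ordered by level, it held rank 6 in ZQD 1 and ZQD 2, rank 7 in ZQD 3, and rank 9 in each control.

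Markers of several cell types moved between the same libraries. For comparison, 41.8% of all tested genes had a log2 fold change above 0. The marker counts are by mean FPKM and include markers under the filter, so that share is only a rough comparison for them. All ZQD libraries lay above all controls for 4.09% of all genes and 5.35% of genes past the filter. Of 10 macrophage markers, 9 were higher on average in ZQD and 5 had groups that did not overlap. Their summed level was 1185 to 1518 FPKM in ZQD and 828.9 to 1180 FPKM in controls, and none of the 10 was at 0 in every library. Folr2 and Mrc1, receptors of resident macrophages, averaged 7.01 ± 4.14 and 25.0 ± 19.5 FPKM in ZQD and 2.14 ± 0.525 and 8.11 ± 2.82 FPKM in controls. C1qa, a complement subunit made by the same cells, overlapped between groups. All 7 mast cell markers had higher means in ZQD, with a summed level of 5.11 to 67.0 FPKM in ZQD and 6.53 to 22.6 FPKM in controls. Of 5 adipocyte markers, 4 had higher means, and their sum was 2.43 to 93.7 FPKM in ZQD and 2.25 to 6.46 FPKM in controls. The lowest ZQD value of both sums was in ZQD 3, where Adipoq and Plin1 were at 0. All 7 endothelial and all 7 T cell markers had higher means in ZQD, each with overlapping sums (18.6 to 36.6 FPKM in ZQD and 17.5 to 29.5 FPKM in controls for endothelial cells, and 12.5 to 19.3 FPKM in ZQD and 9.34 to 15.8 FPKM in controls for T cells). All 6 epithelial markers had lower means, with sums of 7.66 to 21.4 FPKM in ZQD and 9.60 to 33.7 FPKM in controls. Of 6 skeletal muscle markers, 5 had lower means, with sums of 8.83, 2.69 and 8.69 FPKM in ZQD and 27.2, 2.42, 3.02 and 2.07 FPKM in controls 1 to 4. Control 1 thus weighed heavily on the control means. On the log2 scale Acta1 (0.463), Ckm (0.385), Myh4 (0.144) and Tnnt3 (0.427) were above 0. Myh1 (-0.155) and Mylpf (-0.057) were below 0. The part of any of these cell types in the Hpgd difference was not tested.

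**Figure D2:**
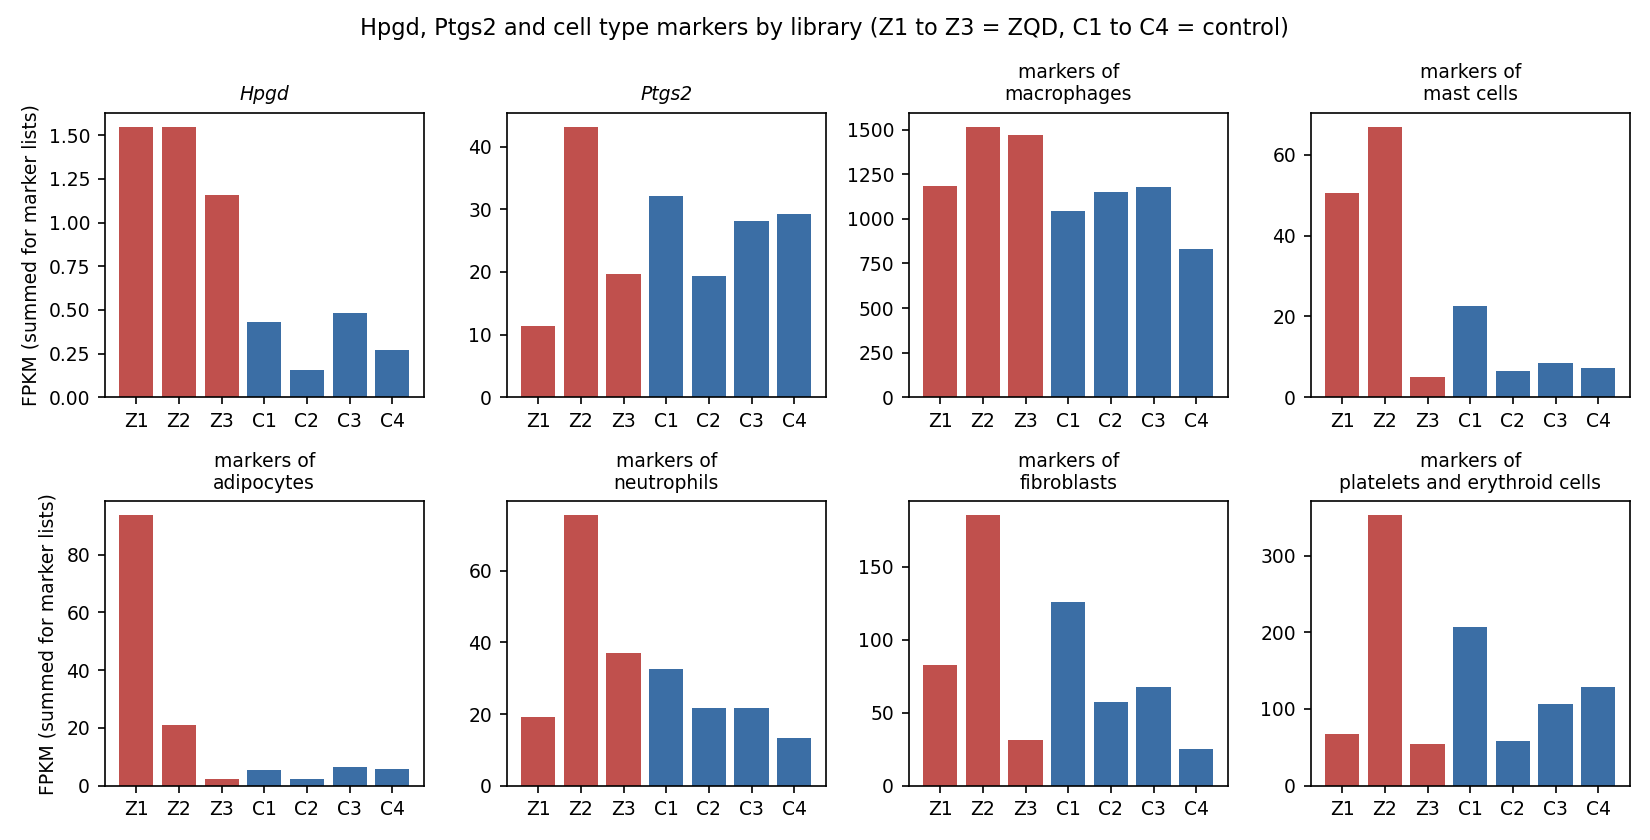
Bars give FPKM of Hpgd and Ptgs2 and the summed FPKM of 6 marker lists in each library, ZQD in red (Z1 to Z3) left of control in blue (C1 to C4), on axes that start at 0. Hpgd is high in all 3 ZQD libraries, and the marker sums of macrophages, neutrophils, mast cells, fibroblasts, and platelets and erythroid cells are each highest in Z2.

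Slco2a1 encodes the transporter that brings prostaglandins into cells, the step before oxidation by the Hpgd product. It was at 1.25, 1.34 and 0.694 FPKM in ZQD and at 0.963, 1.05, 1.02 and 1.15 FPKM in controls. Its highest and its lowest value were both in ZQD, so the groups overlapped. The means were 1.09 ± 0.350 FPKM in ZQD and 1.04 ± 0.0762 FPKM in controls, and the log2 fold change 0.022 (SE 0.175, limma adjusted p = 0.966). In the controls every library had Slco2a1 above Hpgd. In ZQD every library had Hpgd above Slco2a1, though the ranges of both genes overlapped.

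On the synthesis side, Pla2g4a encodes cytosolic phospholipase A2, which releases arachidonic acid. It was at 7.81, 12.5 and 7.21 FPKM in ZQD and at 8.82, 8.21, 9.03 and 9.22 FPKM in controls. ZQD 2 was above all controls and the other 2 ZQD libraries were below all of them. The log2 fold change was 0.015 (SE 0.171, limma adjusted p = 0.978), and -0.22 without ZQD 2.

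The cyclooxygenases are the constitutive Ptgs1 and the inducible Ptgs2. Ptgs2 was at 11.4, 43.2 and 19.7 FPKM in ZQD and at 32.1, 19.3, 28.2 and 29.3 FPKM in controls. The highest to lowest ratio was 3.79 in ZQD and 1.66 in controls, and the extremes of all 7 libraries were ZQD 2 and ZQD 1. The log2 fold change was -0.31 (SE 0.385, limma adjusted p = 0.727). It was 0.13 without ZQD 1 and -0.81 without ZQD 2, so its direction rested on single libraries. ZQD 2, the library with most Ptgs2 and Pla2g4a, also had the highest summed level of 6 of the 10 marker lists. These were macrophages (1518 FPKM), neutrophils (75.6 FPKM), mast cells (67.0 FPKM), endothelial cells (36.6 FPKM), fibroblasts (185.3 FPKM), and platelets and erythroid cells (352.9 FPKM). By group, 6 of 7 neutrophil markers had higher means in ZQD, with sums of 19.1 to 75.6 FPKM in ZQD and 13.4 to 32.5 FPKM in controls. Of fibroblast markers 2 of 6 had higher means in ZQD, and of platelet and erythroid markers 4 of 6. These counts depend on the scale. Dcn and Lum, lower by mean, had log2 fold changes of 0.328 and 0.037, and Hbb-bs, higher by mean, had -0.382. The part of these cells in the Ptgs2 level was not tested. Ptgs2os2, a long noncoding RNA gene named for the opposite strand of Ptgs2, was also highest in ZQD 2 (7.84 FPKM) and between 2.99 and 4.28 FPKM in the other 6 libraries. The annotation gives it no base in common with Ptgs2.

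Ptgs1 was at 24.8, 17.4 and 12.8 FPKM in ZQD and at 23.8, 6.89, 19.2 and 12.7 FPKM in controls. The groups overlapped over most of their range, and the controls alone spanned a ratio of 3.45. Its log2 fold change was 0.31 (SE 0.389, limma adjusted p = 0.735), and -0.020 without control 2. The ratio of Ptgs2 to Ptgs1 was 0.460, 2.48 and 1.54 in ZQD and 1.35, 2.80, 1.47 and 2.31 in controls, so ZQD 1 was the 1 library with more Ptgs1 than Ptgs2 per length. Exons of Ptgs1 overlap those of Gm43621 on the opposite strand, and whether the counting used strand is not given, so reads of the 2 genes cannot be told apart. Gm43621 averaged 1.85 ± 0.698 FPKM in ZQD and 1.14 ± 0.483 FPKM in controls.

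The 3 PGE2 synthase genes overlapped between the groups, and their log2 fold changes stayed below 0 under all 21 alternative settings. These settings reuse the same 7 libraries, and the median of all tested genes was also below 0 in the main fit (-0.043). Ptges, the inducible membrane enzyme coupled to Ptgs2, was at 26.2, 27.9 and 26.8 FPKM in ZQD and at 30.5, 22.8, 30.1 and 33.6 FPKM in controls. All ZQD values fell inside the range of the controls, and the log2 fold change was -0.10 (SE 0.127, limma adjusted p = 0.731). Ptges2, which encodes a second membrane-associated synthase, was at 1.15, 1.45 and 1.05 FPKM in ZQD and at 1.36, 1.43, 1.02 and 1.45 FPKM in controls. Its log2 fold change was -0.084 (SE 0.149, limma adjusted p = 0.822). Ptges3, the cytosolic synthase that is also the HSP90 co-chaperone p23, was the most abundant member in all 7 libraries, at 82.0, 81.0 and 87.1 FPKM in ZQD and 91.3, 102.3, 74.1 and 94.4 FPKM in controls. Its log2 fold change was -0.11 (SE 0.114, limma adjusted p = 0.678). The copy Ptges3-ps was listed at 86.0 ± 5.54 FPKM in ZQD and 99.4 ± 9.48 FPKM in controls, so the division of reads between gene and pseudogene is uncertain.

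**Figure D3:**
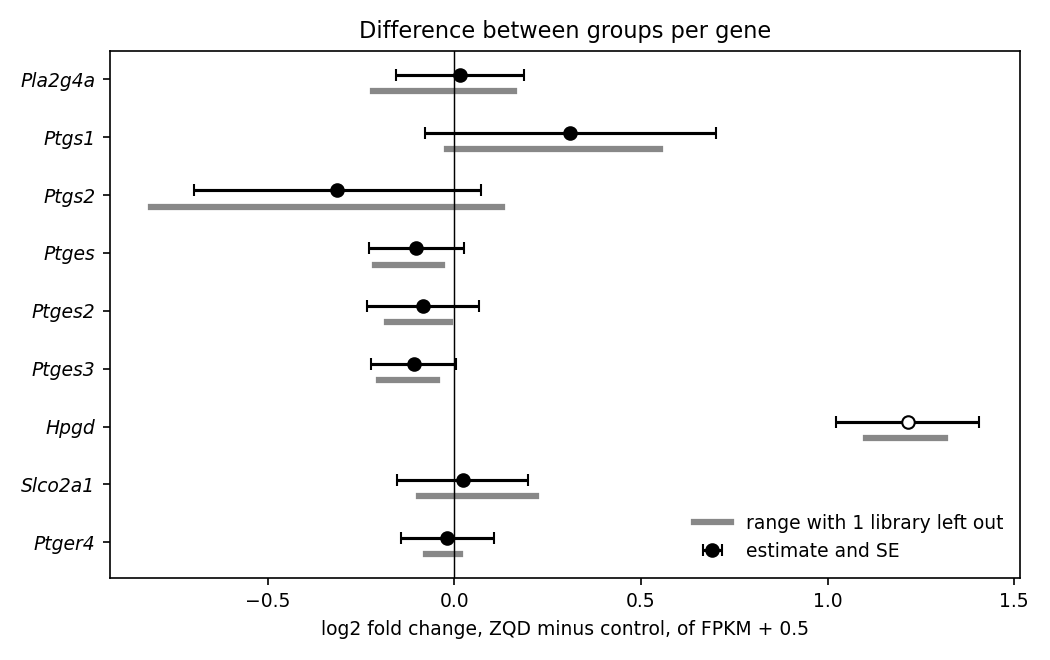
Log2 fold changes, ZQD minus control, of the 9 members past the filter; points and whiskers are the estimate and its SE, grey bars the range with 1 library left out, and the open point (Hpgd) carries no test. Hpgd stands at 1.22, and the grey bars of Pla2g4a, Ptgs1, Ptgs2, Slco2a1 and Ptger4 cross 0.

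Set against Hpgd, the synthesis genes gave ratios that separated the groups. The FPKM of Ptgs2 over that of Hpgd was 7.36, 27.8 and 17.0 in ZQD and 74.8, 126.2, 58.4 and 108.0 in controls. For Ptges over Hpgd it was 16.9, 18.0 and 23.1 in ZQD and 71.1, 149.4, 62.4 and 123.7 in controls. Since neither numerator separated the groups by itself, these ratios follow the Hpgd values by which the gene was chosen and carry no test. In every library both synthesis genes remained more abundant than Hpgd.

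**Figure D4:**
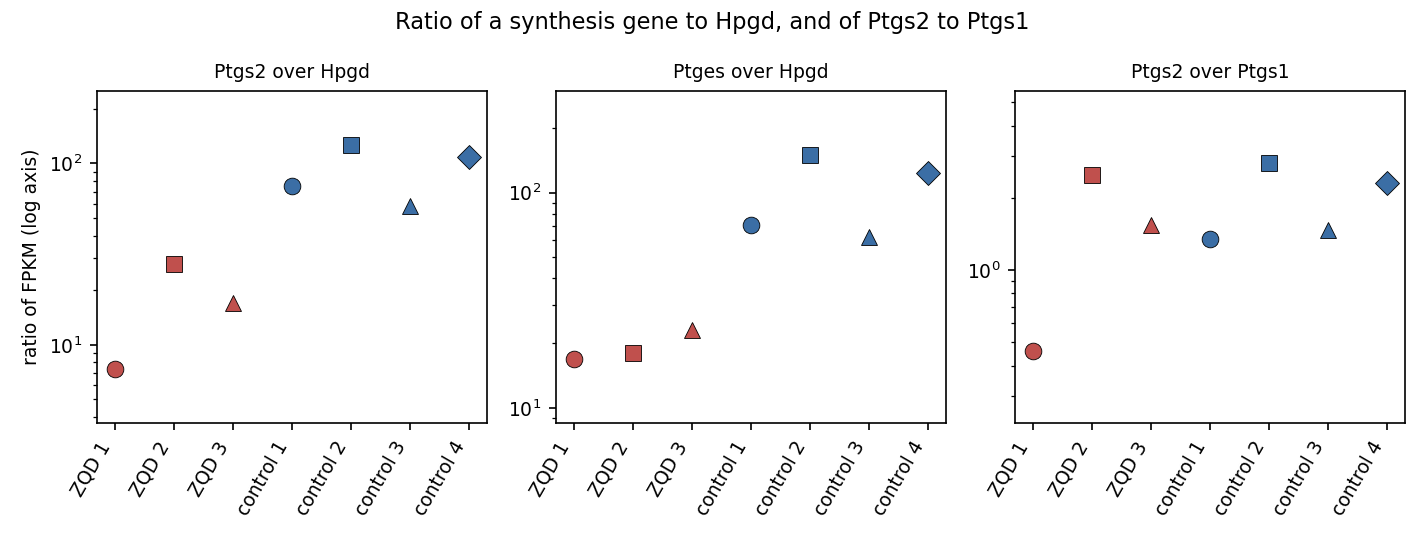
Ratio of FPKM per library on log axes, for Ptgs2 over Hpgd, Ptges over Hpgd and Ptgs2 over Ptgs1, with ZQD in red left of control in blue. The first 2 ratios are lower in all ZQD libraries than in any control, and the third overlaps.

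Ptger2 and Ptger4 encode the PGE2 receptors EP2 and EP4, which both raise cyclic AMP. Ptger4 was at 1.33, 1.24 and 1.23 FPKM in ZQD and at 1.30, 1.42, 1.37 and 1.09 FPKM in controls. All ZQD libraries lay inside the range of controls, and the log2 fold change was -0.019 (SE 0.124, limma adjusted p = 0.955). Exons of Ptger4 overlap those of Ttc33 on the opposite strand, a gene at 13.4 ± 1.19 FPKM in ZQD and 12.5 ± 1.20 FPKM in controls. It also overlaps the pseudogene Gm15937, and reads of overlapping genes cannot be told apart if strand was not used.

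Ptger2 was the least abundant member in all 7 libraries. It was at 0.172, 0.259 and 0.166 FPKM in ZQD and at 0.154, 0.109, 0.0721 and 0.103 FPKM in controls. The groups did not overlap, but the lowest ZQD library and the highest control were separated by less than the range within either group. The reads were 33, 52 and 30 in ZQD and 40, 22, 12 and 21 in controls. In the limma fit with no expression filter its log2 fold change was 0.20 (SE 0.077), with an unadjusted p of 0.0365 and an adjusted p of 0.474. Annotated exons of Gm17173 and Gm49364 overlap those of Ptger2 on the opposite strand, and Gm17173 was at 0.0587 ± 0.0133 FPKM in ZQD and 0.0409 ± 0.0262 FPKM in controls.

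Ordered by mean FPKM over all libraries, the members ran Ptges3, Ptges, Ptgs2, Ptgs1, Pla2g4a, Ptger4, Ptges2, Slco2a1, Hpgd and Ptger2. Only the steps from Ptges3 to Ptges and from Pla2g4a to Ptger4 had ranges that stayed apart in both groups. The steps from Ptgs1 to Pla2g4a and from Hpgd to Ptger2 were apart in ZQD alone, and that from Slco2a1 to Hpgd in controls alone. The remaining neighbours overlapped in both groups.

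The rest of the pathway was read from 8 lists of 71 genes, of which 70 were measured and 53 passed the filter. In limma, 4 of the 53 were higher and 1 lower at an unadjusted p under 0.05, which is 9.43% beside 15.5% of all tested genes, and 0 passed over all genes. edgeR called 0 of them, beside 0% of all genes it tested. DESeq2 called 2, Pla2g7 and Tsc22d3, beside 4.13% of the 12525 genes to which it gave an adjusted p. The median log2 fold change of the 53 was 0.043, with 34 above and 19 below 0. Of all tested genes, 41.8% were above 0. Of the 70 measured genes, 5 had all ZQD libraries above all controls and 2 all below, together 10%, beside 9.47% of all genes. Those not taken up by the naming rule, and named after their values were seen, were Crem, lowest in ZQD at 1.90 FPKM and highest in controls at 1.85 FPKM, and Daglb, at 1.25, 1.19 and 1.42 FPKM in ZQD and 1.53, 1.42, 1.56 and 1.57 FPKM in controls, where ZQD 3 and control 2 differ by less than the rounding.

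Among 12 genes of arachidonate release and related lipid hydrolysis, 6 passed the filter, with 1 higher and 0 lower at an unadjusted p under 0.05. This was Pla2g7, which encodes the secreted hydrolase of platelet-activating factor, a macrophage product. It was at 38.7, 42.7 and 29.9 FPKM in ZQD and at 26.5, 29.0, 24.5 and 16.9 FPKM in controls, with groups that did not overlap. Its log2 fold change was 0.62 (limma adjusted p = 0.216, edgeR adjusted p = 0.185, DESeq2 adjusted p = 0.0233). Plaa, an activator of phospholipase, averaged 22.5 ± 1.34 FPKM in ZQD and 21.9 ± 1.98 FPKM in controls. Pla2g15 was at 9.23 ± 1.20 and Pla2g6 at 6.49 ± 0.606 FPKM in ZQD, against 9.17 ± 0.531 and 7.56 ± 1.80 FPKM in controls. Mgll, the monoacylglycerol lipase, was at 0.962 ± 0.362 FPKM in ZQD and 0.659 ± 0.0373 FPKM in controls.

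Of 8 other prostanoid synthase genes 6 passed the filter, and 1 was higher at an unadjusted p under 0.05. Tbxas1, the thromboxane synthase, was at 1.15, 1.71 and 1.58 FPKM in ZQD and at 0.848, 1.14, 1.10 and 1.03 FPKM in controls, with a log2 fold change of 0.36 (limma adjusted p = 0.303). ZQD 1 and control 2 were nearly level. Akr1b3, an aldo-keto reductase able to form prostaglandin F2 alpha, averaged 7.23 ± 0.405 FPKM in ZQD and 7.22 ± 0.849 FPKM in controls. Hpgds, the haematopoietic prostaglandin D synthase, was at 2.98 ± 0.638 FPKM in ZQD and 2.99 ± 0.715 FPKM in controls. Gstm2 was at 4.35 ± 1.61 and Cbr1 at 1.90 ± 0.275 FPKM in ZQD, against 3.33 ± 0.614 and 1.60 ± 0.275 FPKM in controls.

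Of 7 other prostanoid receptor genes, 6 were measured and 2 passed the filter; Ptgdr was not analysed here. Ptgir, the prostacyclin receptor, averaged 1.25 ± 0.595 FPKM in ZQD and 0.692 ± 0.316 FPKM in controls. Ptgfr, the receptor of prostaglandin F2 alpha, was at 0.448 ± 0.202 FPKM in ZQD and 0.472 ± 0.310 FPKM in controls. Ptger3, which encodes EP3, stayed under the filter at 0.200, 0.173 and 0.223 FPKM in ZQD and 0.0211, 0.0317, 0.0987 and 0.134 FPKM in controls. Its groups did not overlap, and with no filter its adjusted p in limma was 0.368. Ptger1, which encodes EP1, was at 0.0697 ± 0.0174 FPKM in ZQD and 0.103 ± 0.0189 FPKM in controls.

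For export and later breakdown, 6 of 7 genes passed the filter and 0 reached an unadjusted p under 0.05. Abcc4, the exporter of PGE2, averaged 6.76 ± 0.678 FPKM in ZQD and 7.12 ± 0.382 FPKM in controls. Ptgr1, the reductase that acts after the Hpgd product, was at 15.4, 47.4 and 12.3 FPKM in ZQD and 14.2, 14.1, 11.7 and 15.5 FPKM in controls. ZQD 2 stood above the other 6 libraries, and without it the log2 fold change was -0.001 in place of 0.58. Ptgr2 was at 2.94 ± 0.170 and Ptgr3, listed under its older symbol Zadh2, at 16.1 ± 1.01 FPKM in ZQD, against 3.21 ± 0.399 and 15.7 ± 1.54 FPKM in controls.

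In the leukotriene and lipoxygenase branch, 8 of 11 genes passed the filter, and 0 reached an unadjusted p under 0.05. Alox5ap, the partner of 5-lipoxygenase, averaged 13.9 ± 4.66 FPKM in ZQD and 10.8 ± 1.07 FPKM in controls. Lta4h, the leukotriene A4 hydrolase, was at 12.7 ± 0.867 FPKM in ZQD and 14.3 ± 0.857 FPKM in controls. Ephx1 was at 22.3 ± 5.37 and the leukotriene receptor Cysltr1 at 2.41 ± 0.541 FPKM in ZQD, against 18.3 ± 4.78 and 2.33 ± 0.585 FPKM in controls.

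All 10 listed inducers of Ptgs2 and Ptges passed the filter, 5 with positive and 5 with negative log2 fold changes, and 0 had an unadjusted p under 0.05. Il1b, a cytokine that induces both genes, was at 12.0, 20.8 and 17.6 FPKM in ZQD and at 15.0, 10.4, 13.1 and 4.18 FPKM in controls. The highest value was in ZQD 2 and the lowest in control 4, and the groups overlapped. Tnf averaged 4.17 ± 0.995 FPKM in ZQD and 3.10 ± 0.682 FPKM in controls. The NF-kB subunit genes Nfkb1 and Rela were at 10.3 ± 0.814 and 35.5 ± 3.96 FPKM in ZQD, against 12.0 ± 1.04 and 37.3 ± 1.43 FPKM in controls. Hif1a was at 48.0 ± 4.15 and the receptor Il1r1 at 20.2 ± 6.61 FPKM in ZQD, against 46.2 ± 3.89 and 27.4 ± 11.5 FPKM in controls.

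Of 6 genes that restrain Ptgs2 or arachidonate release, all passed the filter, and 1 was higher at an unadjusted p under 0.05. Tsc22d3 encodes GILZ, a glucocorticoid-induced protein. It was at 40.4, 25.7 and 33.9 FPKM in ZQD and at 19.7, 14.4, 22.8 and 21.9 FPKM in controls, with no overlap between groups. The log2 fold change was 0.74 (limma adjusted p = 0.176, edgeR adjusted p = 0.133, DESeq2 adjusted p = 0.00244). Anxa1, annexin A1, averaged 119.6 ± 3.17 FPKM in ZQD and 116.6 ± 10.6 FPKM in controls. The phosphatase gene Dusp1 was at 19.4 ± 8.84 and Zfp36, which encodes the mRNA decay factor tristetraprolin, at 21.8 ± 5.17 FPKM in ZQD, against 17.8 ± 4.94 and 26.2 ± 4.19 FPKM in controls.

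Of 10 genes known to respond to cyclic AMP, 9 passed the filter, with 1 higher and 1 lower at an unadjusted p under 0.05. Pde4b, a phosphodiesterase that degrades cyclic AMP, was at 1.81, 2.54 and 2.56 FPKM in ZQD and at 1.48, 1.75, 1.95 and 1.62 FPKM in controls, with overlapping groups and a limma adjusted p of 0.309. Sik1, a kinase induced by cyclic AMP, was at 9.31, 13.3 and 13.2 FPKM in ZQD and at 16.0, 13.9, 15.4 and 18.0 FPKM in controls. All ZQD libraries were below all controls, with a log2 fold change of -0.41 (limma adjusted p = 0.251). Nr4a1 averaged 7.34 ± 1.36 and Areg 27.1 ± 11.1 FPKM in ZQD, against 8.26 ± 0.941 and 19.9 ± 8.85 FPKM in controls. Vegfa was at 32.4 ± 16.0 FPKM in ZQD and 43.3 ± 9.10 FPKM in controls.

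**Figure D5:**
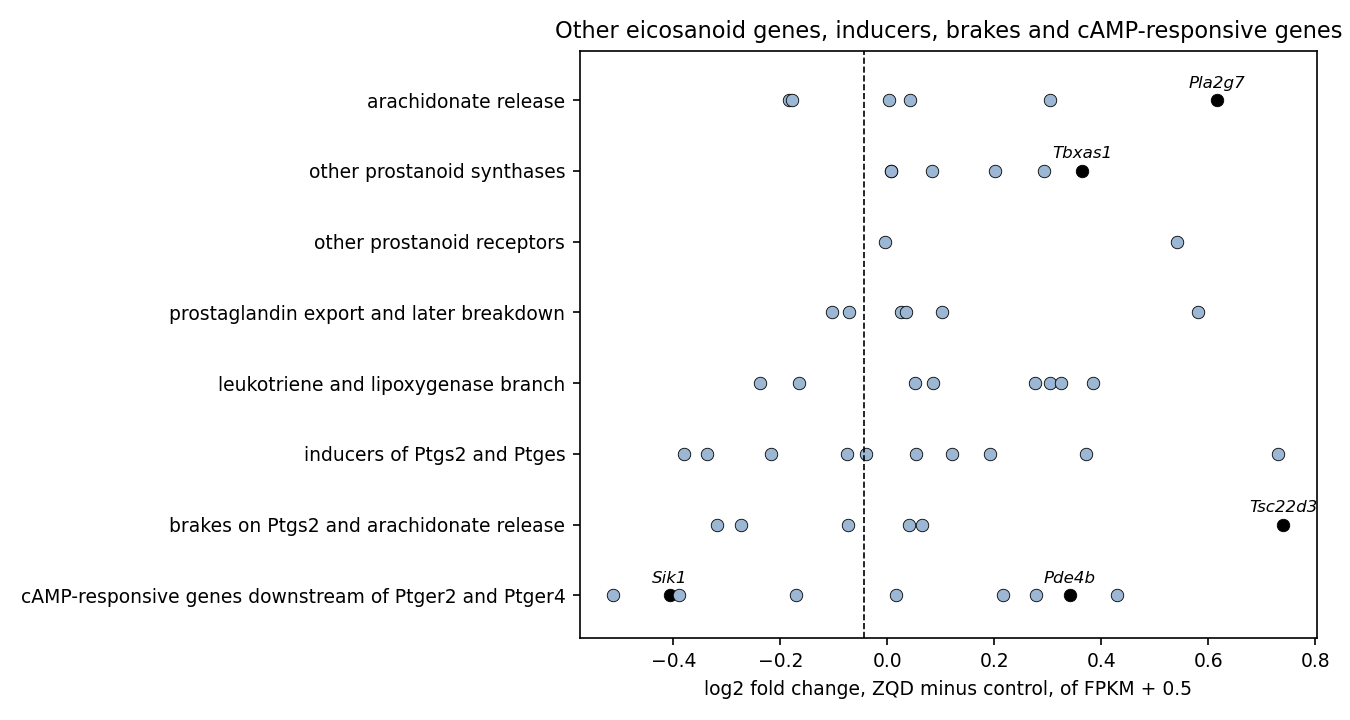
Log2 fold changes, ZQD minus control, of the 53 pathway genes past the filter, grouped in 8 lists; black points have an unadjusted limma p under 0.05, and the dashed line is the median of all tested genes (-0.043). The 5 black points, of which only Sik1 lies below 0, lie in 4 lists.

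The genes whose profile over the 7 libraries was most like that of Hpgd were Ica1, Spink2, Tmem71, Lrmp and Serpina3f, by Pearson correlation of log2(FPKM + 0.5) among 10986 genes. The measure ran from 0.977 to 0.989 and describes these 7 libraries, in which Hpgd itself falls into 2 groups. Ica1 was at 5.31, 5.32 and 4.98 FPKM in ZQD and at 4.65, 4.32, 4.71 and 4.49 FPKM in controls. Those most like Ptgs2 were Ier3, Dpf1, Nid2, Sox9 and Abi2, with 0.929 to 0.978. Ier3, an immediate early gene, was at 24.7, 67.9 and 44.7 FPKM in ZQD and at 61.4, 36.2, 52.3 and 55.6 FPKM in controls, lowest in ZQD 1 and highest in ZQD 2, as Ptgs2 was.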

How the data were processed

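FPKM of every library and raw counts of control 1 and control 2 alone were deposited by the authors, gene by gene. Per the labels' protocols, libraries were paired-end and made from poly(A) RNA. Per the submitters' processing notes, HISAT2, featureCounts, Subread and DESeq2 were used; the sources used here name no version, role, build or annotation. Symbols matched 31571 (98.0%) of the identifiers. Gene lengths came from the count files, and 4791 genes without a length had no rebuilt reads. For genes with a length, reads rebuilt from the FPKM of the 5 other libraries were whole within 0.05 for 100% of values above 0.

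The main test was limma 3.58.1 with trend in R 4.3.3 on log2(FPKM + 0.5), two-sided, for genes of at least 0.5 FPKM in at least 3 libraries. edgeR 4.0.16 and DESeq2 1.42.0 on rebuilt reads were alternatives, with other pseudocounts, filters, scalings, weights, a replicate block and each library left out. The tests were checked on simulated reads. Members and lists were chosen with earlier results of these data known. Genes named from a list are its 4 most abundant and the 2 of smallest unadjusted p. One gene so chosen is not reported here. Overlapping genes were read from GENCODE M21, promoters from RefSeq. Means are given ± SD. Figures were drawn with matplotlib 3.10.9.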

Additional observations from a re-analysis of the deposited data

How the results depend on the processing

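The number of genes called was 0 in limma under every alternative run except the replicate block, which called 1 (Marco, log2 fold change 2.89, adjusted p = 0.0365); edgeR called 0 (2221 at an unadjusted p under 0.05) and DESeq2 517. Of the tested members other than Hpgd, 0 were called under all 21 alternatives. Same-numbered libraries deviated from their group means with correlations of 0.252, 0.0998 and -0.150. Pairs with different numbers ran from -0.295 to 0.255. The labels give no pairing, and these correlations cannot tell whether same-numbered libraries share anything beyond the number. The block gives control 4 no partner.

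The direction of Hpgd was fixed by how it was chosen. Its log2 fold change was 1.87 with a pseudocount of 0.1, 0.86 with 1, 1.66 on the TPM scale, 2.13 in edgeR and 2.14 in DESeq2. Under a filter of a mean FPKM of at least 1 it was not tested. Ptges, Ptges2 and Ptges3 kept a negative sign throughout. Pla2g4a turned to -0.087 on the TPM scale and -0.005 with library weights, and Slco2a1 to -0.072 and -0.005. Ptger4 turned to 0.004 with median-of-ratios scaling, 0.020 without mitochondrially encoded genes, 0.013 in edgeR and 0.014 in DESeq2. The TPM scale moved the median of all genes to -0.146. With 1 library left out, Ptgs1 ran from -0.020 (without control 2) to 0.552, Ptgs2 from -0.812 to 0.127, Pla2g4a from -0.219 to 0.159, Ptger4 from -0.077 to 0.014 and Slco2a1 from -0.095 to 0.218; the cause was not tested. Reads of Hpgd and Ptger2 (10 to 101 per library) limit their precision.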
